A study of Mus musculus with 2 samples.

Results

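The methionine and one-carbon metabolism genes of the liver were described here as 10 named genes: Bhmt, Mat1a, Gnmt, Ahcy, Cbs, Cth, Pemt, Shmt1, Mthfd1 and Nnmt. They were chosen by gene symbol, with no measured value in the choice, and all 10 were found among the 32285 genes that were counted. The data were single-cell RNA counts from dissociated livers of male C57BL6 mice, with 1 library from WT control liver and 1 library from N-LKO liver together with tumor. In N-LKO mice, a Cre recombinase driven by the albumin promoter deletes the loxP-flanked gene for NgBR (Nus1) in hepatocytes, so other liver cells keep the gene. The control genotype is labelled CTRL, and no further detail of its alleles or of a Cre transgene was used here. Both groups were fed a Western diet for 16 weeks according to the treatment labels, while a high-fat diet stands in the sample titles. Hepatocytes and nonparenchymal cells were mixed in a set ratio before loading, and tumor cells were added to the N-LKO mixture only. Genotype, tumor tissue and library therefore cannot be told apart in any comparison below.

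Methionine is activated to S-adenosylmethionine, the methyl donor of the cell, and returns to homocysteine once the methyl group has been passed on. Homocysteine is either methylated back to methionine, with betaine or a folate as the donor, or drained through cystathionine toward cysteine and glutathione. The liver is the main site of this cycle. Hepatocytes carry their own S-adenosylmethionine synthetase, encoded by Mat1a, while most other cells use the product of Mat2a. In liver injury and in hepatocellular carcinoma, a loss of Mat1a with a gain of Mat2a is widely described.

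The WT library held 85522287 unique molecular identifiers (UMIs, which count single RNA molecules) over 100171 barcodes, and the N-LKO library 87575064 over 90147. After filtering, 18434 WT cells and 19851 N-LKO cells remained, and 122 barcodes were kept as cells in both libraries. The classes named hepatocyte-like from their marker genes held 9955 cells of WT and 4065 of N-LKO, at median depths of 1519 and 1768 UMIs per cell. Levels are given as counts per 1000000 UMIs of the class (CPM), with exact Poisson 95% intervals, and ratios are N-LKO over WT on the log2 scale with exact binomial 95% intervals. With 1 library per group there was no replicate check and no test, and the intervals cover counting error only. The targeted gene Nus1 stood at 73.0 CPM (WT) and 33.9 CPM (N-LKO) in hepatocyte-like cells. The hepatocyte products did not move as 1 group. Alb, the plasma albumin gene, stood at 21822 and 10865 CPM (log2 ratio -1.01), Apoa2 gave -0.42, and Apoa1 gave 0.39.

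Promoter sequence could be matched for 7 of the 10 genes in RefSeq (build GRCm38.p6), and each of these 7 held the letters of the CCAAT box, CCAAT on either strand, within the 250 bases before the start. Pemt held them in 1 of its 2 listed promoters. Over all 32851 listed mouse promoters, 33.9% held these letters in a window of the same length. The starts used are those of RefSeq, and they can differ from the gene positions given below, which come from the GENCODE annotation. By those positions the windows of Shmt1 and Pemt lie inside the gene, and the windows of Bhmt, Gnmt and Cbs overlap it. Distances to the start therefore hold for the RefSeq start only. The sequences of 5 genes are printed because 4 of them (Bhmt, Gnmt, Cbs and Shmt1) were lower in the N-LKO hepatocyte-like cells and the fifth, Mthfd1, was not. They run 5′ to 3′ on the strand of the gene, and capitals mark the CCAAT box, which reads ATTGG on the opposite strand, and in Cbs the E box.
Bhmt, chr13:93637759-93638008, minus strand: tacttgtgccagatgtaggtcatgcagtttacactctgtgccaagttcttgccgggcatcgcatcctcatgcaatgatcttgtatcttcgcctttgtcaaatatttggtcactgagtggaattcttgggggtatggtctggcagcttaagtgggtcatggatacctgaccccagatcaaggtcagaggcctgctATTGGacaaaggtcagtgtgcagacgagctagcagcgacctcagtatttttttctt
Gnmt, chr17:46729166-46729415, minus strand: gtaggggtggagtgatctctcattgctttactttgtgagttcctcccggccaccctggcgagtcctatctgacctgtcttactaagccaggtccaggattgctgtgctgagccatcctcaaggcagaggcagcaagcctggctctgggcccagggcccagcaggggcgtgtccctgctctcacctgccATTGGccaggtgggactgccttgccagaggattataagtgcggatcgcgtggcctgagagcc
Cbs, chr17:31637206-31637455, minus strand: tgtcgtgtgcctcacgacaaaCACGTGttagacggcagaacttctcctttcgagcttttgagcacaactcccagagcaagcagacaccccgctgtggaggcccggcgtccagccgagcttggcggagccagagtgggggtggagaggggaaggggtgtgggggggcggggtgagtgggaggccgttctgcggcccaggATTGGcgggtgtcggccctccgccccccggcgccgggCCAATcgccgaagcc
Shmt1, chr11:60811266-60811515, minus strand: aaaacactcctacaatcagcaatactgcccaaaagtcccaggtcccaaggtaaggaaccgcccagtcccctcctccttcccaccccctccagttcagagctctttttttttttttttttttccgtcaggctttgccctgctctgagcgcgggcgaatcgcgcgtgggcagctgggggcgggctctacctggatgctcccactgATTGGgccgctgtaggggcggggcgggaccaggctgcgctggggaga
Mthfd1, chr12:76254982-76255231, plus strand: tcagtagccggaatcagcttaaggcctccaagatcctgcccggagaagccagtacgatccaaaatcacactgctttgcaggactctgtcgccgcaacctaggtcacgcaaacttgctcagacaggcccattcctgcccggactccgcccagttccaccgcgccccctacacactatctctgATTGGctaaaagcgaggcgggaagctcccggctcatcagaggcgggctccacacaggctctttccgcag
The first base of the ATTGG in each window lay 56 bases before the start in Bhmt, 62 in Gnmt, 52 in Cbs, 47 in Shmt1 and 69 in Mthfd1. In the windows that are not printed, it lay 237 bases before the start in Ahcy, which was also lower in N-LKO, and 248 in Pemt. CACGTG, the E box, was found in Cbs and in 6.02% of all promoters. The windows of the matched genes were also searched on both strands for a TATA box (TATAAA, in 12.4% of all promoters), an HNF1 element (GTTAAT, 6.43%), an HNF4 core (CAAAGTCCA, 0.384%), an ATF4 composite element (TGATGNAAT, 0.816%) and a CEBP element (TTGCNNAA, 9.56%), and none was found. Mat1a, Cth and Nnmt were not matched.

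In hepatocyte-like cells, 9 of the 10 genes had a lower level in the N-LKO library, and the counting interval of the ratio lay below 0 for 8 of them. The median log2 ratio of the 10 genes was -0.84, while the median over all 10605 genes tested (those with at least 5 CPM in either library) was 0.38. Of all tested genes, 29.4% had a ratio below 0, and the share with an interval below 0 was not counted. Summed over the 10 genes, the level was 6142 CPM (WT) and 3453 CPM (N-LKO), or 0.614% and 0.345% of all UMIs of these cells. Cth was the only gene of the 10 that was at least 2-fold lower, in a comparison where 2.4% of all tested genes were at least 2-fold lower. None of the 10 was at least 2-fold higher, in a comparison where 20.8% of all tested genes were. Measured against the median of all tested genes, 7 of the 10 genes were at least 2-fold lower, where 6.27% of all tested genes were. With that centring, lower genes were 37.0% of all genes called in either direction, against 10.3% without it.

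**Figure D1:**
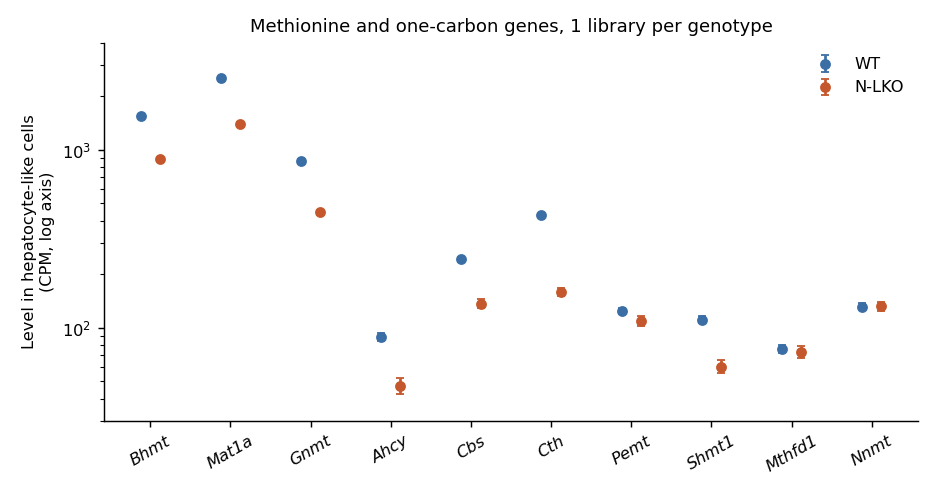
Levels of the 10 genes in hepatocyte-like cells of the WT and N-LKO libraries, in CPM on a log axis, with exact Poisson 95% intervals. The WT point lies above the N-LKO point for the first 6 genes and for Shmt1, while Pemt, Mthfd1 and Nnmt have nearly equal levels in both libraries.

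The methionine cycle was represented by 4 genes. Bhmt (ENSMUSG00000074768, chr13:93616675-93637961, minus strand, GRCm38) encodes the enzyme that methylates homocysteine with betaine. Its level was 1547 CPM (1528 to 1566) in the WT library and 891 CPM (871 to 912) in the other, a log2 ratio of -0.80 (-0.83 to -0.76). Mat1a (ENSMUSG00000037798, chr14:41105035-41124412, plus strand) encodes the hepatocyte form of S-adenosylmethionine synthetase. It stood at 2523 CPM (WT) and 1398 CPM (N-LKO), a log2 ratio of -0.85 (-0.88 to -0.82). Gnmt (ENSMUSG00000002769, chr17:46725664-46729168, minus strand) encodes glycine N-methyltransferase, which consumes surplus S-adenosylmethionine. Its level was 870 CPM (WT) and 446 CPM (N-LKO), and its log2 ratio of -0.97 (-1.02 to -0.91) came close to a 2-fold difference. Ahcy (ENSMUSG00000027597, chr2:155059310-155074497, minus strand) encodes the hydrolase that splits S-adenosylhomocysteine. It stood at 89.2 CPM (WT) and 47.2 CPM (N-LKO), with a log2 ratio of -0.92. The Ahcy transcript is 99.7% identical to that of the counted gene Gm4737 over 2083 bases, so its count is uncertain. All 4 genes of the cycle were lower in N-LKO by similar factors.

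The transsulfuration genes Cbs and Cth encode the enzymes that turn homocysteine into cystathionine and cystathionine into cysteine. Cbs (ENSMUSG00000024039, chr17:31608894-31637238, minus strand) was at 242 CPM (WT) and 137 CPM (N-LKO), a log2 ratio of -0.82. Cth (ENSMUSG00000028179, chr3:157894248-157925077, minus strand) was at 428 CPM (418 to 438) in the WT library and 159 CPM (151 to 168) in the other. Its log2 ratio of -1.43 (-1.51 to -1.34) was the lowest of the 10 genes, and 1.1% of all tested genes had a lower ratio. The second step of the route thus differed more between the libraries than the first, with counting intervals that did not overlap.

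Of the methyltransferases outside the cycle, Pemt (ENSMUSG00000000301, chr11:59970614-60046489, minus strand) makes phosphatidylcholine from phosphatidylethanolamine, and Nnmt (ENSMUSG00000032271, chr9:48591877-48605153, minus strand) methylates nicotinamide. Both draw on S-adenosylmethionine. Pemt stood at 124 CPM (WT) and 109 CPM (N-LKO), a log2 ratio of -0.19 (-0.30 to -0.08). Nnmt stood at 131 CPM (126 to 137) in the WT library and 132 CPM (124 to 140) in the other, so that its log2 ratio was 0.00. Neither shared the size of the difference seen for Bhmt, Mat1a and Gnmt.

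The cytosolic folate genes went apart. Shmt1 (ENSMUSG00000020534, chr11:60788104-60811718, minus strand) encodes the serine hydroxymethyltransferase that loads folate with a one-carbon unit. It was at 111 CPM (WT) and 60.5 CPM (N-LKO), a log2 ratio of -0.87. Mthfd1 (ENSMUSG00000021048, chr12:76255298-76319803, plus strand) encodes the trifunctional enzyme that converts the folate forms into each other. Its level was 75.8 CPM (71.7 to 80.0) in the WT library and 73.3 CPM (67.6 to 79.3) in the other, and the interval of its log2 ratio (-0.19 to 0.09) held 0. The antisense-placed gene Smcr8 overlaps the last exon of Shmt1, and an antisense RNA, Gm15622, overlaps an exon of Bhmt. Whether strand was used in counting was not given in the sources used here, so reads of such partners cannot be told apart, but both partners were under 22 CPM in both libraries.

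Free RNA, which is released from broken cells and caught with any barcode, was estimated to be a larger part of the WT than of the N-LKO hepatocyte-like cells. The pool of barcodes under 500 UMIs, which stands for RNA outside intact cells, held 1481 CPM of Bhmt in WT and 435 CPM in N-LKO. All 10 genes were lower in the N-LKO pool, 8 of them at least 2-fold, in a comparison where 16.8% of tested genes were. Markers of other cell types put the share of such RNA in the hepatocyte-like class at 81.7% in WT (29 markers) and 42.6% in N-LKO (37 markers). These shares are rough, since the pool also holds small or broken cells. In the other classes, where 8 hepatocyte genes set the share from the same pool, it differed less between the libraries. It was 48.3% (WT) and 45.0% (N-LKO) in endothelial-like, 38.5% and 36.0% in macrophage-like, and 52.6% and 49.0% in T-like cells. In WT, Gnmt was lower in hepatocyte-like cells (870 CPM) than in the pool (1270 CPM), and lower than the 1039 CPM that the estimated share alone would give. Mthfd1 in WT was at the level given by that share, 75.9 CPM. In N-LKO, every one of the 10 genes was at 3.56 to 5.36 times the level given by free RNA. Once that level was subtracted, the median log2 ratio of the 8 genes that could still be compared was -0.30. Cth then gave -1.92, Mat1a -0.62, Bhmt -0.07, and Cbs turned to 0.22. Only Cth remained at least 2-fold lower, and no ratio could be formed for Gnmt and Mthfd1, of which no WT counts were left. The same subtraction moved the median of the other pathway genes from -0.09 to 0.43. The share of all tested genes at least 2-fold lower after it was not computed, so these values cannot be read against all genes.

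Hepatocyte-like cells formed 5 clusters, and each was drawn almost wholly from 1 library. Clusters 1, 10 and 18 held 8334, 1190 and 316 WT cells, and clusters 6 and 7 held 1984 and 1959 N-LKO cells. They also differed in Malat1, a long RNA retained in the nucleus, which stood at 8758 CPM in the WT cells of cluster 1, 1536 CPM in cluster 10, 35915 CPM in cluster 18, 4551 CPM in the N-LKO cells of cluster 6 and 20057 CPM in cluster 7. Cluster 7 passed the naming narrowly, with a hepatocyte score of 0.179 (minimum 0.15), 3 raised markers and Kupffer next at 0.143. Its Alb level was 4206 CPM, against 16340 CPM in the N-LKO cells of cluster 6. In the WT clusters 1, 10 and 18, Alb stood at 23754, 9702 and 7337 CPM. Its low levels below may therefore not be those of intact hepatocytes, which was not tested. Bhmt was at 1498, 1962 and 1860 CPM in the WT clusters 1, 10 and 18, against 1052 CPM in cluster 6 and 682 CPM in cluster 7. Mat1a was at 2481, 2968 and 2661 CPM in the WT clusters, against 1830 CPM in cluster 6 and 825 CPM in cluster 7. Every WT cluster thus stood above both N-LKO clusters for these genes, and the Malat1-rich N-LKO cluster was the lowest. The share of all tested genes in that order was not counted. Since each cluster came almost wholly from 1 library, the order is not separate from the difference between the libraries. Gnmt also varied within WT, with 756 CPM in cluster 1, 1780 CPM in cluster 10 and 1461 CPM in cluster 18, and it reached 597 and 254 CPM in clusters 6 and 7. Cth was highest in the Malat1-rich WT cluster 18 (969 CPM), with 420 and 304 CPM in clusters 1 and 10, and it was nearly equal in the N-LKO clusters (164 and 148 CPM). Cth and Gnmt therefore did not follow the same order over the WT clusters.

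**Figure D2:**
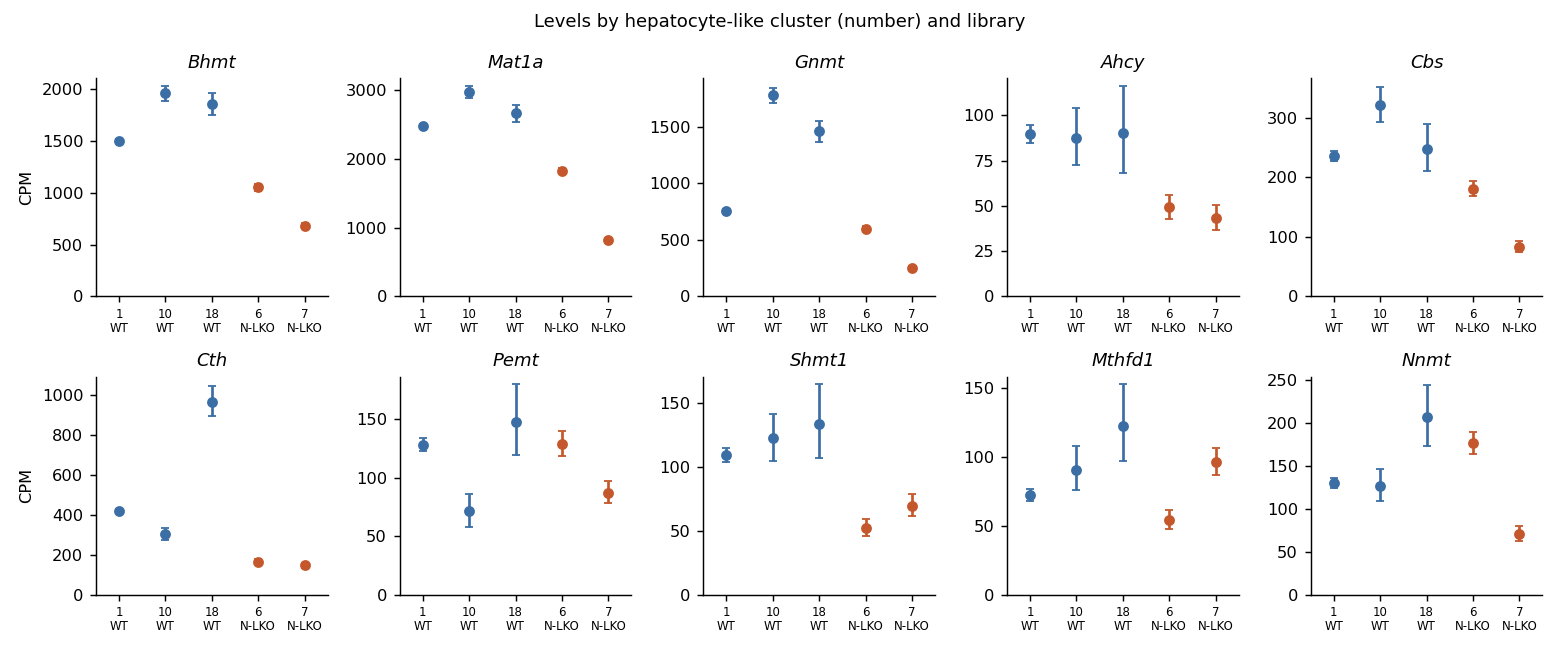
Levels of each gene in CPM (vertical axes start at 0) in the 5 hepatocyte-like clusters, numbered, with the library that gave most of the cells; bars are exact Poisson 95% intervals. For Bhmt, Mat1a, Gnmt, Ahcy, Cbs, Cth and Shmt1 the 2 N-LKO clusters lie below the 3 WT clusters. Pemt, Mthfd1 and Nnmt do not follow that order, and the share of all tested genes that do was not counted.

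A few cells of each library fell in the main cluster of the other, which allowed a comparison within a cluster. Cluster 6 was also high in the acute phase gene Saa1, at 1139 CPM in its WT and 789 CPM in its N-LKO cells, against 65.4 CPM in the WT cells of cluster 1. In cluster 6, the 114 WT cells had 1116 CPM of Bhmt (982 to 1264), close to the 1052 CPM of the 1984 N-LKO cells. Mat1a was at 1918 CPM (1740 to 2109) in the WT cells and 1830 CPM in the N-LKO cells of that cluster, and Gnmt was at 675 and 597 CPM, with overlapping intervals for all 3 genes. In cluster 1, the 95 N-LKO cells had 2573 CPM of Mat1a (2335 to 2829), against 2481 CPM in the 8334 WT cells. Other genes differed there with intervals apart: Cth was at 210 CPM (147 to 293) in the N-LKO and 420 CPM in the WT cells, Bhmt at 1281 CPM (1114 to 1465) and 1498 CPM, Gnmt at 583 CPM (473 to 711) and 756 CPM, and Shmt1 at 48.1 CPM (20.8 to 94.8) and 110 CPM. Ahcy, Cbs, Pemt and Mthfd1 had overlapping intervals in cluster 1, as Mat1a did. The share of all tested genes with intervals apart in that cluster was not counted. In cluster 6, Cth was at 164 CPM (153 to 177) in the N-LKO and 239 CPM (179 to 312) in the WT cells. Nnmt was higher in the N-LKO cells of both clusters, with 289 CPM against 130 CPM in cluster 1 and 176 CPM against 49.5 CPM in cluster 6. The clusters were formed on the expression of 2000 genes, so these values are a description and not a test. Of the 95 N-LKO cells, 3 had a barcode that also occurs in the WT library, and of the 114 WT cells, 3 had one that also occurs in N-LKO.

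Since Malat1 differed between the clusters, the cells were also compared within ranges of Malat1. Each cluster came almost wholly from 1 library, so the WT and N-LKO cells of a range still came mostly from different clusters. The part of cluster 7 in each range is not given here. Among cells with under 1% of their UMIs from Malat1 (7192 WT and 2248 N-LKO cells), the median log2 ratio of the 10 genes was -0.58. Cth (-1.30) and Shmt1 (-1.04) were at least 2-fold lower there, in a comparison where 1.98% of tested genes were. Among cells with 1% or more (2763 WT and 1817 N-LKO cells), the median was -1.04, and Bhmt, Mat1a, Gnmt, Cbs and Cth were at least 2-fold lower, in a comparison where 9.71% of tested genes were. Mat1a stood at 2608 and 1770 CPM in the first range and at 2337 and 912 CPM in the second. The N-LKO level of Mat1a thus differed more between the ranges than the WT level. Nnmt turned direction, at 130 CPM (WT) and 166 CPM (N-LKO) in the first range (log2 ratio 0.35, interval 0.23 to 0.48) and at 134 and 86.3 CPM in the second (-0.64, interval -0.83 to -0.44). Pemt gave 0.07 and -0.62. Without the Malat1-rich N-LKO cluster 7, the median over the 10 genes was -0.50.

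The liver lobule has a pericentral end, marked by Cyp2e1, and a periportal end, marked by Cyp2f2, and cells were ranked within each library by the balance of such markers and cut into 3 equal groups. The log2 ratio of the 10 genes had a median of -0.96 in the pericentral group and -0.78 in the periportal group. In the pericentral group, Bhmt, Gnmt, Cbs and Cth were at least 2-fold lower, in a comparison where 3.23% of tested genes were. In the periportal group, Gnmt and Cth were, in a comparison where 3.01% were. Within a library, Nnmt leaned to the periportal group, with 108 CPM in the pericentral and 156 CPM in the periportal group of WT and 77.6 and 156 CPM in N-LKO. Nnmt was thus equal between the libraries in the periportal group and lower in N-LKO in the pericentral group (log2 ratio -0.47). Cbs had a shallower lean in WT (216 and 259 CPM) than in N-LKO (97.1 and 158 CPM). Bhmt was even across the groups in WT (1564 and 1518 CPM) and periportal in N-LKO (759 and 920 CPM). Ahcy, Shmt1 and Mthfd1 had intervals that held 0 for the difference between these groups in both libraries. The zone score rests on a median of 14 UMIs per cell in WT and 8 in N-LKO, so the groups are ranges and not cell types.

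Over single cells, the summed UMIs of the 10 genes were compared after each cell had been thinned to 1000 UMIs. The median was 6 UMIs per cell in WT (middle range 4 to 8) and 3 in N-LKO (1 to 5). Cells with no UMI from any of the 10 genes were 0.552% (0.416 to 0.719, Clopper-Pearson) of hepatocyte-like cells in WT and 10.1% (9.18 to 11.1) in N-LKO, or 0.0804% and 4.11% without thinning. Within N-LKO they were 5.49% of cluster 6 and 15.2% of cluster 7. After thinning, 89.7% of hepatocyte-like cells in WT and 64.2% in N-LKO had a Mat1a UMI, and 54.6% and 31.7% had one of Gnmt. T-like cells, which should lack the pathway's liver genes, had a Mat1a UMI in 71.3% of WT cells at a median of 1172 UMIs per cell. In N-LKO, 31.2% of T-like cells had one, at a median of 1272 UMIs. For Gnmt the shares of T-like cells were 51.4% and 15.8%, and T-like cells with no UMI from any of the 10 genes were 4.56% in WT and 36.5% in N-LKO. This background thus differed between the libraries in the same direction as the shares of hepatocyte-like cells. The summed median in WT T-like cells was 4 UMIs per 1000, and 1 in N-LKO T-like cells.

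**Figure D3:**
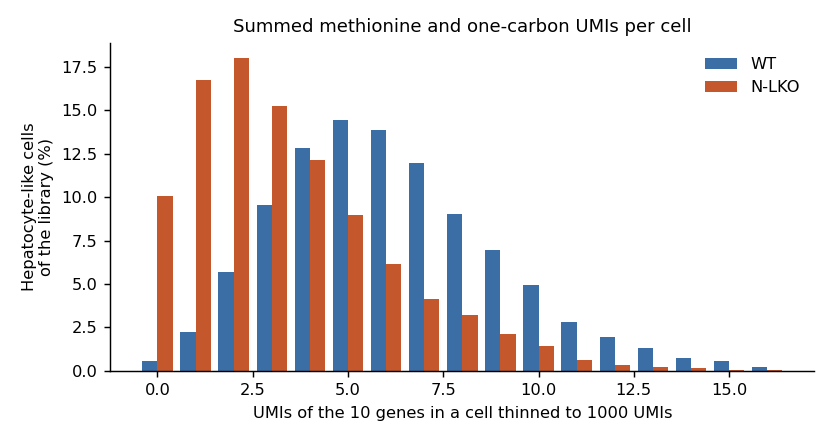
Percent of hepatocyte-like cells of each library (vertical axis) by the number of UMIs from the 10 genes in a cell thinned to 1000 UMIs (horizontal axis, shown to 16). The WT bars centre on 6 UMIs and the N-LKO bars on 3, and 10.1% of N-LKO cells are at 0 against 0.552% of WT cells.

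Of the paralogs of these genes, some had a higher and some a lower level in N-LKO. Mat2a, which encodes the synthetase of other cell types, was at 53.3 CPM (WT) and 108 CPM (N-LKO) in hepatocyte-like cells, a log2 ratio of 1.02 (0.89 to 1.16). In that comparison 20.8% of all tested genes were at least 2-fold higher, and the median over all tested genes was 0.38. Of the UMIs of Mat1a and Mat2a together, Mat2a gave 2.07% (1.94 to 2.21) in WT and 7.18% (6.74 to 7.64) in N-LKO. The share was 1.99% and 5.20% among cells with little Malat1, and 2.25% and 11.9% among cells with more. It was thus higher in N-LKO in both ranges. In the pool of barcodes under 500 UMIs the share was also higher in N-LKO, with 1.72% in WT and 8.60% in N-LKO. Macrophage-like cells, where Mat2a was at 7.95 times the free RNA level in WT, had 10.6% and 30.5%. Ahcyl2, a relative of Ahcy without its known hydrolase role, was at 42.3 CPM (WT) and 113 CPM (N-LKO), a log2 ratio of 1.42 (1.28 to 1.56), and Ahcyl1 was at 65.5 and 87.1 CPM. The ratio of Ahcyl2 was 0.57 among cells with little Malat1, under 2-fold, and 1.71 among those with more. In the same ranges Mat2a gave 0.87, also under 2-fold, and 1.19. Mthfd1l, the mitochondrial relative of Mthfd1, had the highest ratio of the tested pathway genes, with 5.24 CPM (WT) and 23.4 CPM (N-LKO) (log2 ratio 2.16, interval 1.79 to 2.54). Mthfd2, another mitochondrial folate enzyme, was at 4.88 and 11.0 CPM, and Mthfd2l at 11.8 and 16.0 CPM. Among cells with little Malat1, Mthfd1l gave 1.34 and Mthfd2 gave 0.92, the latter under 2-fold. Among those with more, they gave 2.28 and 1.53. Bhmt2 and Shmt2, in contrast, were lower in N-LKO, with log2 ratios of -0.52 and -0.54. Shmt2 was 34.4% of the UMIs of Shmt1 and Shmt2 in WT and 49.9% in N-LKO cells with little Malat1, and 31.8% and 21.2% in those with more.

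Among 63 other genes of the pathway, 60 passed the level needed to be tested, with a median log2 ratio of -0.09. Of these, 7 were at least 2-fold lower and 7 at least 2-fold higher in N-LKO, where 2.4% and 20.8% of all tested genes were. Among cells with little Malat1, 2 of 60 were lower and 2 higher, against 1.98% and 7.68% of all tested genes. Among cells with more, 14 of 59 were lower and 9 higher, against 9.71% and 31.4%. The 6 genes of choline, betaine and sarcosine oxidation had a median of -0.48, and the interval lay below 0 for 4 of them. The lowest was Sardh, the sarcosine dehydrogenase (interval -1.11 to -0.90), while Chdh, which starts betaine synthesis from choline (-0.03, interval -0.18 to 0.12), and Etfdh (-0.09, interval -0.24 to 0.06) had intervals that held 0. Over all tested genes, 29.4% had a ratio below 0, and the shares with an interval below or above 0 were not counted. Of the 10 genes for cysteine, glutathione and sulfide, which lie past Cth, 8 had an interval below 0 and 2 above, with a median of -0.43. The 14 tested partners of the methionine cycle had a median of 0.30, with 3 intervals below 0 and 7 above. The 19 tested folate and glycine genes had 8 intervals below 0 and 7 above. The lowest ratios were those of Inmt, an indolethylamine methyltransferase, with 292 CPM (WT) and 83.7 CPM (N-LKO) (log2 ratio -1.80), Amt, a subunit of the glycine cleavage system (41.1 and 14.2 CPM, -1.53), and Suox, the sulfite oxidase (67.7 and 29.6 CPM, -1.19). The highest beside Mthfd1l were Aox1, an aldehyde oxidase (68.6 and 204 CPM, 1.57), and Ahcyl2. With the free RNA level subtracted, the median over the pathway genes was 0.43.

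**Figure D4:**
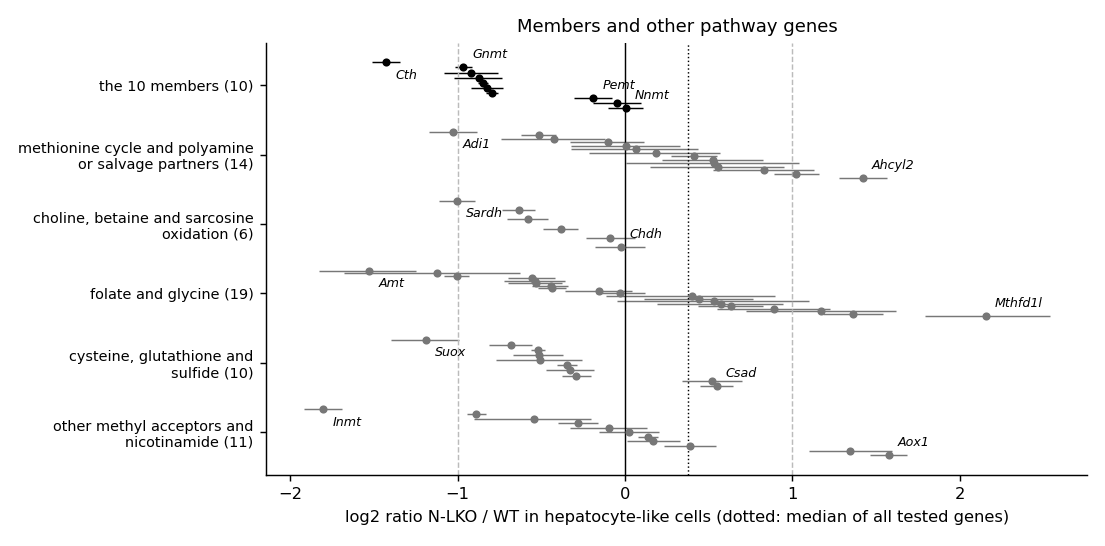
Log2 ratios N-LKO over WT in hepatocyte-like cells with exact binomial 95% intervals for the 10 genes (black) and the other pathway genes by list (grey, number tested in brackets). Dashed lines mark a 2-fold difference and the dotted line the median of all tested genes, 0.38. Cth, Inmt and Amt lie farthest to the left and Mthfd1l, Aox1 and Ahcyl2 farthest to the right.

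The span of a gene also moved with the ratio over all genes, with a median log2 ratio of -0.07 for the shortest and 0.91 for the longest of 5 groups of genes by span. Set against genes of like span, the ratios of the 10 genes ran from -1.75 for Cth to -0.12 for Nnmt. Gnmt, with a span of 3505 bases, stood 0.90 below its group, and Pemt and Mthfd1, with 75876 and 64506 bases, stood 0.80 and 0.66 below theirs. The part of gene span in these results was not tested.

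In the other 9 cell classes the log2 ratio was below 0 for each of the 10 genes, except for Pemt in B-like cells (38.3 and 39.2 CPM), and the counting interval lay below 0 for 5 to 9 of them. By class, 44.6% (endothelial-like) to 56.9% (plasma-like) of all tested genes had a ratio below 0. The share of all tested genes with an interval below 0 was not counted. Of the 10 genes, 7 were at least 2-fold lower in endothelial-like cells, where 7.35% of tested genes were, 7 in macrophage-like cells, where 5.68% were, and 7 in T-like cells, where 8.8% were. The count was 7 in B-like (11.8%), 8 in neutrophil-like (22.7%), 7 in dendritic-like (8.77%), 8 in cholangiocyte-like (12.7%), 8 in plasma-like (22.9%) and 7 in erythroid-like cells (20.3%). Over all barcodes of each library it was 8, where 8.15% of tested genes were. Mat1a in macrophage-like cells, for instance, was at 951 CPM (WT) and 249 CPM (N-LKO), against 813 and 221 CPM expected from free RNA alone. Over 160 combinations of gene, class and library, the counting interval lay above the free RNA level in 82, and Bhmt was at 1.13 to 1.80 times it. The free RNA level rests on the median of 8 hepatocyte genes, whose own shares spread widely. They ran from 40.2% to 56.0% in WT endothelial-like and from 33.4% to 68.3% in WT cholangiocyte-like cells. The counting interval does not hold this spread, so whether a class expresses a gene cannot be read from the 82. Mthfd1 reached 2.89 times the free RNA level, and it was 2.63 times that level in N-LKO endothelial-like cells against 1.20 times in WT. Of 16 combinations each, Bhmt and Mat1a were above it in 12, Mthfd1 in 10, Gnmt, Cth and Shmt1 in 9, Cbs in 7, Ahcy in 6, Nnmt in 5 and Pemt in 3, and Gnmt was below it in 2.

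**Figure D5:**
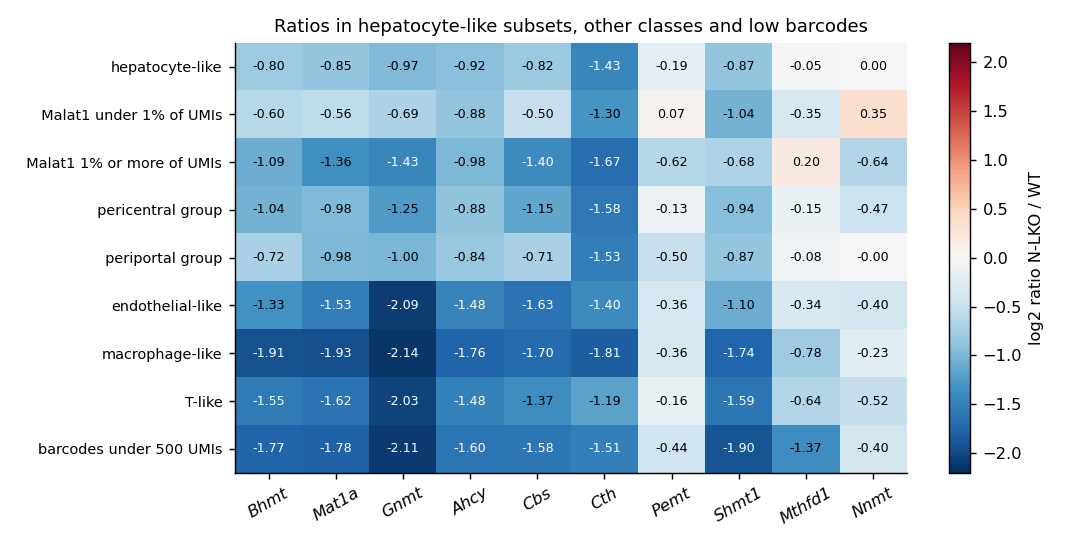
Log2 ratio N-LKO over WT of each gene (columns) in hepatocyte-like cells, their subsets, other classes and the pool of barcodes under 500 UMIs (rows); blue is lower in N-LKO. Gnmt has the lowest value in the pool (-2.11) and in the other 3 classes shown, while Cth has the lowest value in every hepatocyte-like row.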

How the data were processed

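The deposited matrices hold UMI counts as integers, unnormalized, which the authors made with Cell Ranger (7.1.0 in the headers). The submitters' processing notes also name Seurat and the build mm9, while 32158 of the 32285 gene IDs matched the GENCODE M21 annotation of GRCm38. Gene positions given here come from that annotation. Whether intron reads were counted is not given in the sources used here. The libraries held 85522287 (WT) and 87575064 (N-LKO) UMIs, and the barcodes ended at 326 and 377 UMIs, so empty droplets may be among them.

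Barcodes with at least 1000 UMIs, at least 400 genes and at most 30% mitochondrial UMIs were kept, and doublets (Scrublet score over 0.25 in scanpy 1.11.5; 1724 in WT and 2363 in N-LKO) were removed. Counts were scaled to 10000 per cell, and 30 principal components of 2000 variable genes were clustered with leidenalg 0.10.2 at a resolution of 0.3. Clusters were named from 14 marker lists at a score of at least 0.15 with at least 3 raised markers, and the score was set after seeing the data. Cell names were rebuilt here, and any difference from the study may come from that.

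UMIs were summed per class and library. Log2 ratios carry 0.5 UMI added to each sum, and a gene was called at a 2-fold difference. Genes under 5 CPM in both libraries were left out. Zones were 3 equal groups of the cells of a library, and free RNA was estimated from barcodes under 500 UMIs, with the share of a class set by 8 secreted hepatocyte genes, or for hepatocyte-like cells by markers of other types. The text names the 10 genes, their paralogs and, of the pathway lists, the 3 genes with the largest ratio in each direction. Sardh, Chdh and Etfdh are named beside these, outside that rule. The genes and lists were chosen with earlier results of these data known. The intervals were run on simulated Poisson counts, the model that they assume. Those counts had no variation between cells, libraries or animals, so the run says nothing on such variation in these data.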

Additional observations from a re-analysis of the deposited data

Results flagged for a closer look

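Nnmt was marked for a closer look because its difference between the libraries ran in opposite directions in the hepatocyte-like cells with little and with more Malat1. Its log2 ratio was 0.35 among cells with under 1% of their UMIs from Malat1 and -0.64 among cells with 1% or more. Each counting interval excluded 0, but with 1 library per group the difference between the ranges was not tested over samples. No group had enough libraries to look for a library that stands apart.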

How the results depend on the processing

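The median log2 ratio of the 10 genes in hepatocyte-like cells (-0.84) stayed below 0 under all 18 alternatives. It was -0.93 with a minimum of 500 UMIs, -0.50 with 2000 UMIs, -1.22 with a mitochondrial limit of 10%, -0.91 with no such limit, -0.30 with free RNA subtracted, -0.40 when only clusters of middling Malat1 were used, -1.21 relative to the median of all tested genes, -0.92 with totals without mitochondrial UMIs and -0.39 in cells with at least 5% of UMIs from hepatocyte markers. Of the alternatives added after seeing the data, it was -0.58 with Malat1 under 1%, -1.04 with 1% or more and -0.50 with a naming score of at least 0.2. The number of genes at least 2-fold lower (1) became 7 relative to the median, where 6.27% of tested genes were. It became 5 with Malat1 at 1% or more (9.71%) and 2 with Malat1 under 1% (1.98%). Without mitochondrial UMIs in the totals it became 2 (2.91%). It became 3 with 500 UMIs, 6 with the 10% limit and 3 with no limit. It became 2 with only clusters of middling Malat1, with cells weighted equally, in the marker-selected cells and with the higher naming score. For the settings without a percentage here, the share of all tested genes was not computed, so these counts cannot be read against all genes. None of the 10 genes was at least 2-fold higher under any alternative. The median of the other pathway genes (-0.09) became 0.43 with free RNA subtracted and -0.47 relative to the median of all tested genes. Among single genes, Cth was at least 2-fold lower under all 15 alternatives run on it. With the 10% limit, Gnmt went from -0.97 to -2.21, Mat1a from -0.85 to -1.55, Cbs from -0.82 to -1.49, Cth from -1.43 to -2.01 and Nnmt from 0.00 to -0.78. Gnmt was at -0.34 with only clusters of middling Malat1 and -0.33 in the marker-selected cells, and Shmt1 at -0.21 and Bhmt at -0.07 with free RNA subtracted. Cbs turned to 0.22 with free RNA subtracted, and Pemt turned to 0.064 in the marker-selected cells, 0.069 with Malat1 under 1% and 0.027 with the higher naming score. The causes were not tested, but the class itself changed with the cell filters: with 2000 UMIs it lacked the Malat1-rich N-LKO cluster, and with the 10% limit it kept 761 WT and 1066 N-LKO cells. Subtracting free RNA left no WT counts of Gnmt and Mthfd1, so those have no value there. With the profile of all barcodes, 63 of 160 combinations of gene, class and library lay above the free RNA level, in place of 82. No paired analysis was possible because each group has 1 library, and for the same reason no replicate could be left out.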
